A study of Mus musculus with 4 samples.

Results

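The H19 and Igf2 imprinted domain was taken as positions 149755000 to 149860000 of mouse chromosome 7 (mm9). Its members were the CG sites in this interval that had at least 5 reads in every library, with the reads of both strands of a site added together. Of 1340 CG sites listed in the domain, 389 met this minimum, against 2638319 CG sites in the whole series. The 389 sites comprised 31 in the H19 control region (149766168 to 149768424), 54 in H19 (149761400 to 149764100), 260 in Igf2 (149836600 to 149855700) and 44 in the rest of the domain.

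Genomic DNA of 2 sperm fractions was analysed by targeted bisulfite sequencing (TGBS), with 2 libraries of swim-up sperm and 2 of histone replacement-completed sperm (HRCS). All sperm came from wild-type C57BL/6 males aged 11 to 12 weeks, with no transgene or treatment in either group. Swim-up sperm were the motile cells collected from the top of the medium, and HRCS were sperm heads of the total sperm of the caudal epididymis and vas deferens, separated by mild sonication and pelleted through 82% Percoll. Nothing in the sources used here ties a library to 1 animal, so the spread between libraries may be technical. A call is 1 read covering 1 CG site, and the totals of calls were 78562921 and 71379227 for swim-up sperm against 89403347 and 78381101 for HRCS. In the domain they held between 10094 and 12163 calls, of which between 88.8% and 91.1% lay on the 389 sites. The median depth of these sites was between 22 and 26 reads per library, and at a site with 5 reads 1 read moves the level by 20 percentage points. The tables do not name their columns. The count that never exceeded all reads was taken as the methylated reads, and with the opposite reading every level given here would be 100% minus the printed level.

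H19 and Igf2 are a reciprocally imprinted pair: in somatic tissues the maternal copy expresses H19, a long noncoding RNA, and the paternal copy expresses Igf2, a fetal growth factor. The H19 control region lies between them, a short distance upstream of H19. On the maternal copy it is unmethylated and bound by the insulator protein CTCF, which keeps the enhancers beyond H19 from reaching Igf2. On the paternal copy it acquires DNA methylation in male germ cells, which prevents CTCF binding and is maintained after fertilization, when ZFP57 binds its methylated motif at imprinted regions. Sperm carry only the paternal state.

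Both genes are transcribed from the higher toward the lower coordinate, and the sequences shown here are written 5′ to 3′ in that sense. They are those of GRCm38.p6, from its genome, GENCODE transcripts or the RefSeq promoter and hairpin tables, and were placed on mm9 positions by the spacing of their CG sites. The spacing of all 1340 CG sites of the domain occurred at exactly 1 place on chromosome 7 of GRCm38.p6, although bases between the sites could differ between the builds. The first 2 sequences are shown because they hold the matches to the core of the CTCF motif, GGNGGCAG, in the sequenced part of the control region, and the capitals mark the match. In the others the capitals mark CG sites. They are the stretch of H19 exon 1 in which the level changed, the hairpin of Mir675 within the same exon, 2 Igf2 promoters without more than the first bases of their transcripts, and the 12 bp step within Igf2.
CTCF match 1 (chr7:149766184-149766251): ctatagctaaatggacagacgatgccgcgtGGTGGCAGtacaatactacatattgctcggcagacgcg
CTCF match 2 (chr7:149766639-149766706): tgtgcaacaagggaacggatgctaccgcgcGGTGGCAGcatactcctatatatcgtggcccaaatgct
H19 exon 1 stretch (chr7:149763403-149763702): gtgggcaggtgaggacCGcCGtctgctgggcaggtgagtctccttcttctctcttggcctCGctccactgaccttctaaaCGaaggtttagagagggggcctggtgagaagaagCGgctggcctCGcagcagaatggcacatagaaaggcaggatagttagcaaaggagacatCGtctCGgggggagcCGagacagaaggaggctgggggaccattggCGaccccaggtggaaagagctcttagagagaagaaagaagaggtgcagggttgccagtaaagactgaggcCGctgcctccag
Mir675 hairpin (chr7:149762969-149763052): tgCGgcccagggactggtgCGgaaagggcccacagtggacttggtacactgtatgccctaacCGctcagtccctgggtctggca
Igf2 promoter 2 (chr7:149847181-149847426): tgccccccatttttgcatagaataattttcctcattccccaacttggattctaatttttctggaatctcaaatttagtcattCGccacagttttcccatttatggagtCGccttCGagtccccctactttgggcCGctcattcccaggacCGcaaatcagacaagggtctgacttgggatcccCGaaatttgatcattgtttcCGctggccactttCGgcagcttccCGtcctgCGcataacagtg
Igf2 promoter 4 (chr7:149843372-149843651): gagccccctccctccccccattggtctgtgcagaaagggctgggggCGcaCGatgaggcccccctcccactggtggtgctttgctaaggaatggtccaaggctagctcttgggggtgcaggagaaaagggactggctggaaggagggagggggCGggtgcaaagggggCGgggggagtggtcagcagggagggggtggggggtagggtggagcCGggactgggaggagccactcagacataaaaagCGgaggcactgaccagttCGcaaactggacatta
Igf2 step (chr7:149842901-149842974): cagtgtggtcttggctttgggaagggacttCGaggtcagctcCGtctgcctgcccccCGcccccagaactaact

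The H19 control region was almost fully methylated in both sperm fractions. Its mean CG site level was 97.5% and 97.1% in swim-up sperm against 96.7% and 97% in HRCS. All 4 libraries lay within 1 percentage point of each other, and the region's mean over them was 97.1% ± 0.334 (SD, n = 4). Of the 31 sites, 30 were above 75% in all 4 libraries and none was at or below 25% in all of them. As a share of calls, the methylated part was 97.6% in swim-up replicate 1 (95% Wilson interval 96.4% to 98.4%, 992 calls) and 96.9% in HRCS replicate 1 (95.8% to 97.7%, 1277 calls), where the intervals cover counting error only. Each of the 5 windows of 200 bp that touch the region was between 93.5% and 99.0% in every library.

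The highest site of the control region by its mean was 149766452, with 98.1% and 100% in swim-up sperm against 100% in both HRCS libraries. The lowest was 149766678, which had 89.3% and 87.5% in swim-up sperm against 71.8% and 93.1% in HRCS. Both swim-up values of this site lay between the HRCS values, so the fractions overlapped. Its neighbours 149766676 and 149766680, each 2 bp away, had means of 98.7% and 98.4%. Site 149766678 lies directly beside the second CTCF match, whose first base belongs to site 149766676. Beside the first match, sites 149766223 and 149766225 had means of 96.2% and 98.8%, with no library under 89.8%.

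The control region held 5 matches to GGNGGCAG on either strand, of which 2 lay in its sequenced part. At least 1 match was found in 42.4% of all stretches of the same length (2257 bases) on chromosome 7, and 5 or more matches in 0.291% of them. The motif was also present in 12.6% of the 32851 RefSeq promoters of 300 bases. TGCCGC, the motif of ZFP57, also had 5 matches on either strand, 2 of them in the sequenced part, and 5 or more matches in 0.0382% of stretches of that length. One CTCF match, at 149767695, overlapped a ZFP57 match and lay in the part of the control region without sufficient reads. At least 1 TGCCGC was present in 13% of those stretches and in 11.6% of the promoters. The stretches were not matched to the control region in CG content, and TGCCGC itself contains a CG. A match is a description of the letters, not of a bound site.

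The sequenced part of the control region ended at 149766998. The 32 sites above it did not reach the minimum, and the other 3 CTCF matches lie in that part. The highly methylated stretch therefore could not be followed upstream from there, and the next windows with enough sites lay 29200 bp away. Toward H19 the stretch passed the lower edge of the control region without a change. Windows above 75% in all 4 libraries ran from 149765001 to 149767000, a span of 2000 bp (1100 bp with windows of 100 bp), although only those with 3 sites at the minimum could be assessed. At 149764880, the last methylated site before the unmethylated ones at the H19 start, the level was 92.3% and 100% in swim-up sperm against 86.4% and 93.3% in HRCS.

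**Figure D1:**
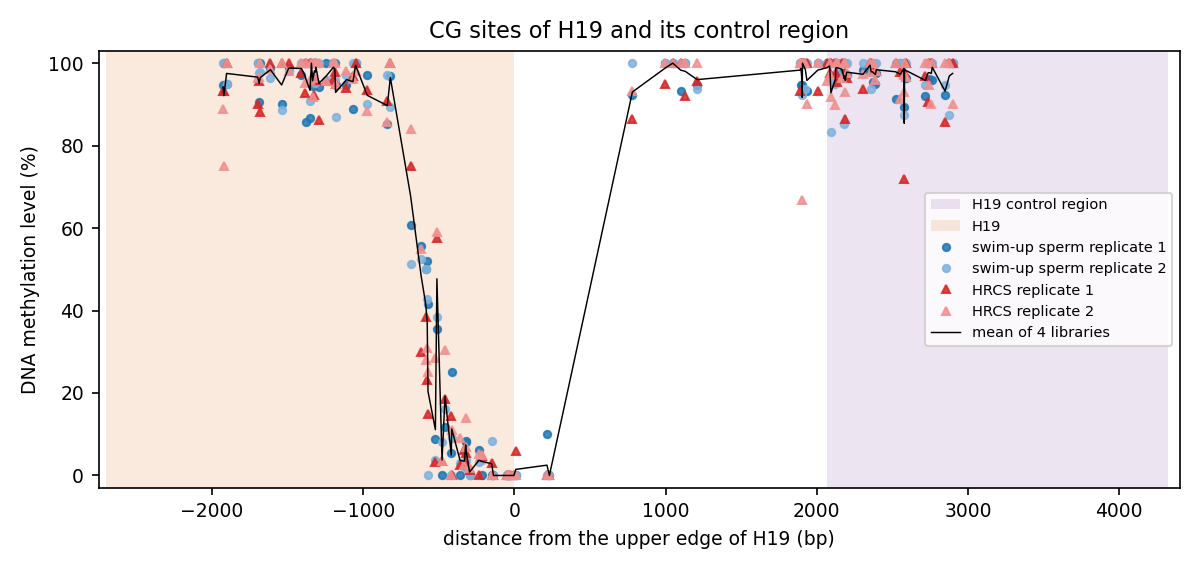
Each point is the DNA methylation level (%) of 1 CG site in 1 library against its distance in bp from the upper edge of H19, with circles for swim-up sperm, triangles for HRCS, a line for the mean of 4 libraries and shading for H19 and its control region. The level is near 97% in the control region, falls to 0% around the upstream start of H19 and is again above 85% in all libraries in most of the body of H19, with circles and triangles on the same course.

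H19 itself was not in a single state. Its mean CG site level was 60.3% and 59.5% in swim-up sperm against 58.9% and 60.9% in HRCS. This mean joined a methylated body with an unmethylated upstream start. Of its 54 sites, 29 were above 75% in all 4 libraries, 16 were at or below 25% in all 4, and 9 were neither. Site 149762757 was at 100% in all 4 libraries.

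The upstream start of H19 was unmethylated. Other annotated first exons of H19 lay in methylated parts of the gene. Among them, 149762108 to 149762443 and 149762734 to 149763291 had means between 92.8% and 98.4% per library. The start of H19 means the upstream one here. Over the 5 sites from 149763961 to 149764096, which span an annotated start of H19 at 149764048, there was no methylated call among 45 and 40 calls in swim-up sperm against 84 and 60 calls in HRCS. These sites are neighbours picked for having no methylated call, and the 2 other listed sites of the span, both under the minimum, had 2 methylated calls among 79. The unmethylated stretch of 18 sites reached from 149763682 in exon 1 to 149764331 upstream of the gene, with means of 3.67% and 1.99% in swim-up sperm against 2.60% and 3.10% in HRCS. It ended between 149764331 and 149764880, a gap without sites at the minimum. The lowest window of H19, at 149764001 to 149764200, had 0% in both swim-up libraries and 1.18% and 0% in HRCS.

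The body of H19 was highly methylated. The 28 sites from 149762196 to 149763279 had means of 96.0% and 96.9% in swim-up sperm against 95.9% and 97.4% in HRCS, with no value under 85.3%. The highest window of H19, at 149762601 to 149762800, had 96.6% and 98.6% in swim-up sperm against 97% and 98.0% in HRCS over 11 sites. The Mir675 hairpin, from which the microRNA miR-675 is processed out of the H19 transcript, lies in this part of exon 1. Its 3 CG sites had means of 96.0%, 95.5% and 99.5%, and the lowest value in any library was 88.9%.

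Between the start and the body, the level changed within exon 1 over a stretch that did not fall evenly. Read along the transcript, the 11 CG sites of the sequence shown for exon 1 had means of 11.3%, 4.96%, 19.2%, 3.75%, 47.7%, 11.1%, 20.4%, 37.2%, 41.6%, 48.3% and 67.8%. The last of them, 149763413, lies 134 bp from the methylated site 149763279. Single sites stood apart from neighbours in all 4 libraries. Site 149763587 had 35.5% and 38.5% in swim-up sperm against 57.7% and 59.1% in HRCS. Site 149763577, 10 bp away, had 8.82% and 3.70% in swim-up sperm against 3.23% and 28.6% in HRCS. On the other side, site 149763621, at a distance of 34 bp, had 0% and 8% in swim-up sperm against 3.57% and 3.45% in HRCS. These steps of 36.6 and 43.9 percentage points on average had the same sign in 4 of 4 libraries. The window of this stretch, 149763401 to 149763600, had 43.5% and 34.1% in swim-up sperm against 34.6% and 44.3% in HRCS, so the fractions overlapped.

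Igf2 was largely unmethylated at its sites with the minimum of reads. Its mean CG site level was 13.4% and 12.8% in swim-up sperm against 13.2% in each HRCS library, and its median site had a mean of 1.02%. As a mean of window levels, Igf2 had 21.8% and 20.5% in swim-up sperm against 21.5% and 20.6% in HRCS. Of its 260 sites, 216 were at or below 25% in all 4 libraries, 26 were above 75% in all 4, and 18 were neither. No methylated read was found in any library at 96 of the sites, and 3 sites, among them 149841646, were at 100% in all 4.

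The low sites formed a long stretch that held annotated first exons of Igf2, promoter 3 and part of promoter 2 of the RefSeq table, while other first exons were not placed or, in 1 case (149841559 to 149841923), lay in a methylated part. From 149843600 to 149847317, 154 of 251 listed sites were at the minimum, so this stretch was read with gaps. These sites had means of 1.05% and 0.918% in swim-up sperm against 1.44% and 1.37% in HRCS, with no single value above 20%. After 149847444, the next site at the minimum lay 2217 bp away. A further stretch from 149849661 to 149850096 held 36 sites with a mean of 1.03% over the libraries, and 25 sites from 149850104 to 149850433 had 1.57%. One annotated first exon of Igf2 (149846837 to 149847210) had 27 sites with means of 1.15% and 0.237% in swim-up sperm against 1.49% and 1.13% in HRCS. Another first exon (149844269 to 149845394) had only 34 of its 100 CG sites at the minimum, with means between 0.226% and 0.999% per library. The lowest window of Igf2, at 149844601 to 149844800, had 0% in all 4 libraries over 5 sites.

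The 3 Igf2 promoters of the RefSeq table that could be placed differed in level. Promoter 3 (149844660 to 149844959) had 0% and 0.427% in swim-up sperm against 0.898% and 1.57% in HRCS over 18 of its 24 CG sites. Promoter 2 (149847127 to 149847426) had 4.95% and 1.47% in swim-up sperm against 4.99% and 6.18% in HRCS over 14 CG sites. The first CG site of its printed sequence, 149847343, was its highest, with 20.0% and 3.45% in swim-up sperm against 4.17% and 26.7% in HRCS. Promoter 4 (149843352 to 149843651) lies at the edge of the low stretch and had 19.3% and 3% in swim-up sperm against 13.8% and 15.9% in HRCS over 4 of its 7 CG sites. In its printed sequence the first CG sites, 149843604 and 149843600, had means of 7.71% and 0.715%, and the last, 149843386, had 60.0% and 0% in swim-up sperm against 23.8% and 31.2% in HRCS. The fourth promoter in the table has 2 CG sites and was not placed. The table holds no entry for H19.

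**Figure D2:**
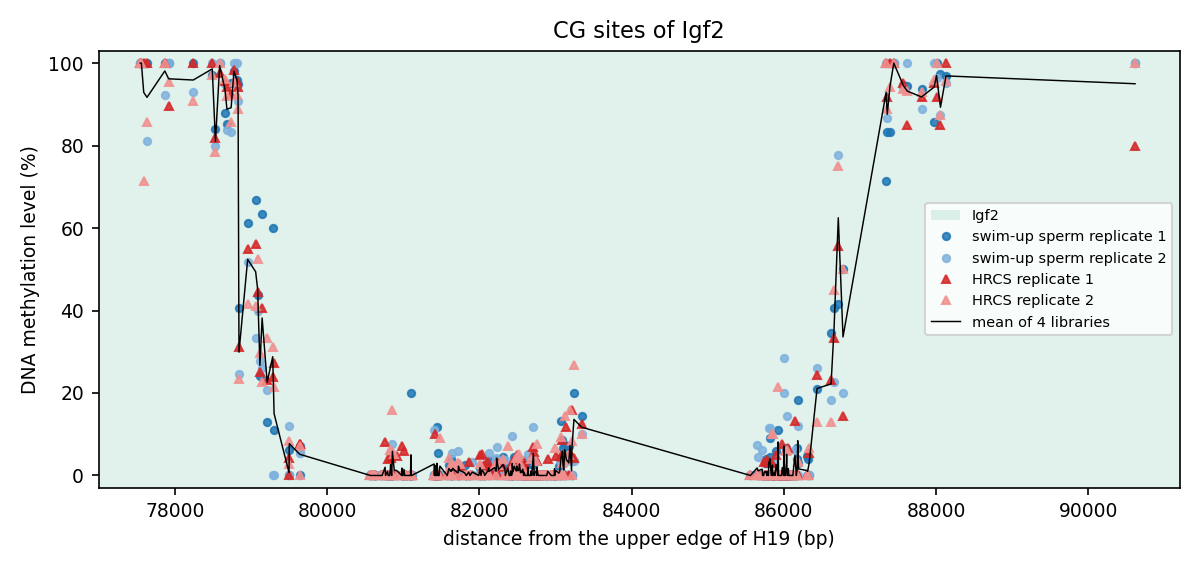
Each point is the DNA methylation level (%) of 1 CG site of Igf2 in 1 library against its distance in bp from the upper edge of H19, with circles for swim-up sperm, triangles for HRCS and a line for the mean of 4 libraries. Sites near 0% lie in the middle, with gaps that hold no site at the minimum, and sites above 75% lie on both sides, with a step of 62.4 percentage points on the left.

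Methylated sites lay on both sides of the low stretch. On the side of the coding exons, 13 sites from 149841735 to 149842931 had means of 95.3% and 92.3% in swim-up sperm against 95.4% and 92.2% in HRCS. An internal exon of several annotated transcripts (149841559 to 149841721) has 10 CG sites, and the 3 of them at the minimum were at 100% in both swim-up libraries and in HRCS replicate 1, and averaged 90.5% in HRCS replicate 2. This part also holds the highest window of Igf2, 149841601 to 149841800, with 100% and 95.3% in swim-up sperm against 100% and 89.3% in HRCS. On the upstream side, 10 sites from 149851458 to 149852230 had means of 92.9% and 94.9% in swim-up sperm against 93.5% and 94.2% in HRCS.

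The border toward the coding exons held the sharpest step of the domain between neighbouring sites at most 50 bp apart. Site 149842931 had 95% and 90.9% in swim-up sperm against 94.3% and 88.9% in HRCS. Site 149842943, 12 bp further upstream, had 40.5% and 24.5% in swim-up sperm against 31.2% and 23.3% in HRCS. The step was -54.5 and -66.4 percentage points in swim-up sperm against -63.0 and -65.6 in HRCS, with the same direction in 4 of 4 libraries. In the printed sequence of the step, the first CG is 149842943 and the second is 149842931. Among 307 pairs of neighbouring sites at most 50 bp apart in the domain, the median difference was 1.29 percentage points, and 3 pairs differed by more than 25, this one and the 2 pairs of H19 exon 1 described above. From 149842943 to 149843404, 9 sites had intermediate levels, with means of 42.7% and 24.9% in swim-up sperm against 36.3% and 33.0% in HRCS. On the upstream side, the means of the sites between 149850536 and 149850877 were between 21.1% and 62.5%, and the next site at the minimum, 149851443, had 92.9%, so how sharp this border is could not be measured.

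The rest of the domain held few sites at the minimum. Its 44 sites had mean levels of 76.8% and 77.1% in swim-up sperm against 77% and 78.9% in HRCS. Site 149765147 was at 100% and site 149764331 at 0% in all 4 libraries. The sites include the unmethylated ones just upstream of H19 and the methylated flank of the control region, which are described above. Its highest window lay in that flank, at 149765001 to 149765200, with 97.8% and 100% in swim-up sperm against 98.3% and 100% in HRCS. Its lowest window, 149796601 to 149796800, had 74.3% and 63.9% in swim-up sperm against 72.8% and 83.3% in HRCS.

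That window belongs to a stretch of intermediate level between the control region and Igf2. From 149796376 to 149797522, 16 sites had means of 63.4% and 59.9% in swim-up sperm against 64.5% and 70.1% in HRCS, with single values from 14.3% to 97.3%. Directly beside it, sites 149796290 and 149796348 had means of 98.7% and 94.5%. Pooled over all 524 sites listed between the control region and Igf2, 79.1% of 2371 calls were methylated (95% Wilson interval 77.4% to 80.7%), and 307 of these sites had no read in any library. Most of these calls lay on the sites from 149796290 to 149797522, so the pooled share is not the level of the whole interval.

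**Figure D3:**
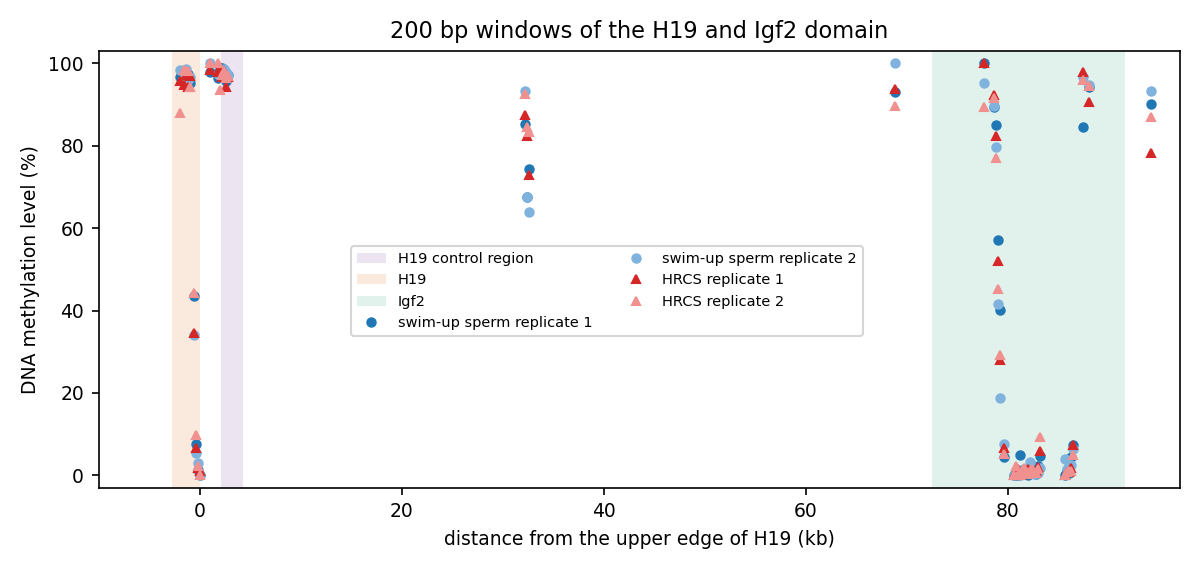
Each point is the DNA methylation level (%) of a 200 bp window of the domain in 1 library against its distance in kb from the upper edge of H19, with circles for swim-up sperm, triangles for HRCS and shading for the 3 named regions. The 48 windows fall mostly near 0% or above 75%, and the long interval between the control region and Igf2 holds only 4 windows.

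Within each library the control region was more methylated than either gene. It exceeded H19 by 37.2 and 37.7 percentage points in swim-up sperm, and by 37.8 and 36.1 in HRCS, a mean difference of 37.2 ± 0.778 (SD, n = 4). It exceeded Igf2 by 84.1 and 84.4 percentage points in swim-up sperm, and by 83.5 and 83.9 in HRCS, a mean difference of 83.9 ± 0.363 (SD, n = 4). It exceeded the rest of the domain by 19.6 ± 1.09 percentage points (SD, n = 4), a value that was 7.79 when windows in place of sites were averaged, and 12.5 and 12.9 where 10 and 20 reads were required. The excess over H19 was 29.7 where 10 reads were required and 38.2 with window means, and that over Igf2 was 76.0 with window means. Each difference was positive in 4 of 4 libraries, and the two-sided exact sign-flip permutation test gave p = 0.125 for each, the smallest p that 4 libraries allow.

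Each window of the domain was set beside all windows of the series with the same number of CG sites. All 5 windows of the control region held between 6 and 9 CG sites and were above 75%, as were 32.7% of the 78534 windows of that CG content in the whole series. For the single windows, between 4.15% and 21.7% of all windows with the same number of CG sites reached the same mean level. The H19 window 149762601 to 149762800, with 11 CG sites, had a level of 97.5%, reached by 2.32% of the 7228 windows with 11 CG sites. The level of the other 4 windows of the body was reached by between 18.8% and 38.4% of windows with as many CG sites. The highest window of Igf2, with 7 CG sites and a level of 96.1%, was reached by 16.7% of the 21356 windows with 7 CG sites. By this share, it and 1 of these 4 H19 windows stood higher than the lowest control region window. The means of the Igf2, H19 and control region windows were 96.1%, 96.4% and 96.0%. Each of these means lay within the range of the libraries of the other windows. In the rest of the domain, the 2 windows of the flank of the control region, 149765001 to 149765200 and 149765801 to 149766000, were reached by 1.78% and 6.33% of windows with as many CG sites, and the first of these is the smallest share of the 48 windows. In Igf2, the 5 windows with 20 or more CG sites were all at or below 25%, as were 99.7% of such windows in the series. Of the 48 windows of the domain, 47.9% were at or below 25% and 43.8% were above 75%, against 50.9% and 40.3% of the 316993 windows of the series. These shares are a description, since the domain was chosen and its windows are neighbours.

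**Figure D4:**
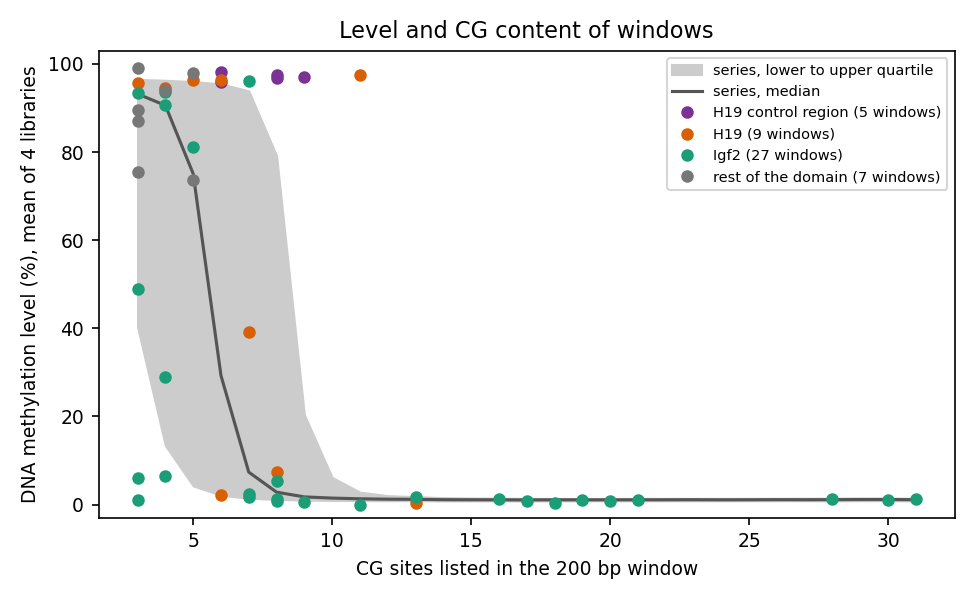
Points are the 48 windows of the domain, coloured by region, with the number of CG sites listed in the window against its DNA methylation level (%, mean of 4 libraries), and the band and line are the interquartile range and the median of all windows of the series with that number of CG sites. The windows with 6 or more CG sites that lie near the top, far above the median, are the 5 of the control region, 2 of H19 and 1 of Igf2, and the Igf2 windows with 20 or more CG sites lie on the median.

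The comparison of HRCS with swim-up sperm asks whether a preparation purified for completed histone replacement carries another methylation pattern at these genes. By the staining assay of the study, most swim-up sperm had also completed the replacement. Completed and uncompleted sperm are therefore not compared here, and a difference confined to the uncompleted sperm would be diluted. No region passed the test, and the differences of the region means were between -0.452 and 1.01 percentage points. The control region differed by -0.452 percentage points (HRCS minus swim-up sperm), from 97.3% ± 0.264 to 96.8% ± 0.245 (SD, n = 2 each). Both HRCS values lay below both swim-up values, and the two-sided exact permutation test gave p = 0.33, the smallest p that 2 libraries against 2 allow. With the mean of window levels the difference was -0.198 percentage points and the libraries overlapped (exact permutation p = 1.00), and leaving out swim-up replicate 1 gave -0.266 and leaving out HRCS replicate 1 gave -0.279. H19 differed by 0.0222 percentage points, with 59.9% ± 0.593 in swim-up sperm against 59.9% ± 1.46 in HRCS (SD, n = 2 each, exact permutation p = 1.00). Igf2 differed by 0.0761 percentage points, with 13.1% ± 0.475 and 13.2% ± 0.0215 (SD, n = 2 each, exact permutation p = 1.00). The rest of the domain was higher in HRCS by 1.01 percentage points, with 77% ± 0.247 and 78.0% ± 1.34 (SD, n = 2 each, exact permutation p = 0.667). This difference was 4.19 and 5.18 percentage points where 10 and 20 reads were required, -0.751 with pooled calls, 1.95 without HRCS replicate 1 and 0.0597 without HRCS replicate 2, and the differences of H19 and Igf2 also changed sign with the processing, to -0.879 for H19 with pooled calls and -0.343 for Igf2 where 20 reads were required. With 2 libraries per fraction no region could have reached 0.05.

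None of the 48 windows of the domain passed an adjusted p of 0.05 in edgeR's quasi-likelihood test, where 0.00379% of the 316993 windows of the series did. At an unadjusted p under 0.05, 2 of the 48 were found, against 4.63% of all windows. Fisher's exact test on calls pooled over the libraries of a fraction, which covers counting error only and not the spread between libraries, called none of the 48 after adjustment, against 0.756% of all windows, with 3 at an unadjusted p under 0.05, against 9.66%. In limma on logit levels 0% of all windows and none of the 48 were called, with 1 of the 48 at an unadjusted p under 0.05, against 5.68% of all windows. Likewise none of the 389 CG sites passed in edgeR's test, where 1.90e-04% of all sites did, and 9 had an unadjusted p under 0.05, against 1.78% of all sites. Fisher's exact test on the sites called none, against 0.0101% of all sites, and 10 (2.57%) had an unadjusted p under 0.05, against 2.40%. HRCS replicates 1 and 2 both exceeded the 2 swim-up libraries at 38 of the 389 sites (9.77%, against 7.98% of all sites) and fell short of both at 25 (6.43%, against 7.83%). For windows the counts were 8 of 48 (16.7%, against 16.6% of all windows) and 7 of 48 (14.6%, against 16.1%). Over the sites of the domain, replicates differed by 4.01 percentage points on average in swim-up sperm against 4.14 in HRCS, and pairs of 1 library from each fraction by between 4.08 and 4.23. These averages are mostly over Igf2 sites near 0%, and the regions differed. In H19, replicates differed by 4.55 and 5.01 percentage points and pairs across the fractions by between 5.78 and 6.61, and HRCS was without overlap above at 18.5% and below at 14.8% of its 54 sites. In the rest of the domain these shares were 20.5% and 13.6% of 44 sites, with replicates 7.45 and 9.43 percentage points apart and pairs across the fractions between 8.94 and 10.1. The shares were 6.45% and 9.68% in the control region, and 6.54% and 3.08% in Igf2. None of the differences between these shares was tested.

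The window furthest above swim-up sperm in HRCS was 149796401 to 149796600, in the intermediate stretch between the control region and Igf2, with 67.5% and 67.6% in swim-up sperm against 82.4% and 84.5% in HRCS. The groups did not overlap, the difference was 15.9 percentage points, and edgeR's test gave an unadjusted p = 0.0355 and an adjusted p = 1.00. The next were 149796601 to 149796800, higher by 8.91 percentage points, and 149851401 to 149851600, higher by 6.24. The latter lies within Igf2, upstream of those of its promoters that could be placed. In both of these the fractions overlapped. The window furthest below was 149858201 to 149858400, beyond Igf2, with a difference of -9.06 percentage points and with 90.0% and 93.3% in swim-up sperm against 78.2% and 87.0% in HRCS. The next 2 were 149762001 to 149762200 in the 3′ part of H19 (-5.70 percentage points) and 149832801 to 149833000 between the genes (-4.77). For all 6 windows edgeR's adjusted p was 1.00.

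Among single CG sites, the one furthest above in HRCS was 149796514 in the same intermediate stretch, with 66.7% and 52.9% in swim-up sperm against 87.9% and 95% in HRCS (difference 31.6 percentage points, edgeR adjusted p = 0.986). Next came 2 sites in the changing stretch of H19 exon 1. Site 149763413 had 60.7% and 51.3% in swim-up sperm against 75% and 84.1% in HRCS, and site 149763587 was higher in HRCS by 21.4 percentage points, each without overlap of the fractions. In the same stretch, site 149763523 differed by -20.5 percentage points, with 52.0% and 42.9% in swim-up sperm against 23.1% and 30.8% in HRCS. Neighbouring sites of exon 1 thus lay in opposite directions. Further below in HRCS were 149797280 (-24.4 percentage points) and 149858364 (-21.8), where HRCS had only between 5 and 13 reads per library. The adjusted p of all 6 sites was 0.986.

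**Figure D5:**
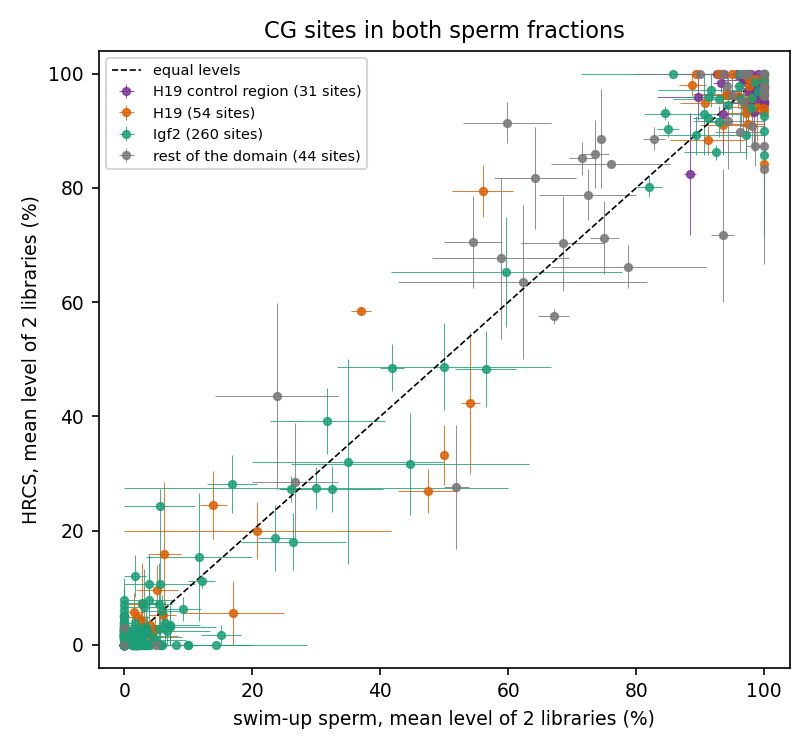
Each point is 1 of the 389 CG sites, with its mean level (%) over the 2 swim-up libraries against its mean over the 2 HRCS libraries, coloured by region, and bars reach from 1 library of a fraction to the other. Control region sites cluster in the upper corner, Igf2 sites in both corners, and the sites farthest from the dashed line of equal levels belong to H19 exon 1 and the rest of the domain.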

How the data were processed

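The authors enriched genomic DNA with mouse Methyl-Seq capture probes, prepared libraries by post-bisulfite adapter tagging with 5 PCR cycles, sequenced single reads of 100 cycles and mapped them to mm9 with Bmap. They deposited counts per CG site and strand, taken here as the methylated reads and all reads, as whole numbers without normalization. Whether duplicate reads were removed is not given in the sources used here.

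Here the strands were added and sites were kept where each of the 4 libraries had 5 or more reads. A level is the methylated share of the reads. A region is the plain mean of its sites, as in the study. Windows were 200 bp, counted from position 1, with at least 3 such sites. In the domain, between 92.8% and 99.7% of calls per region and library lay on the minus strand. Windows and sites were tested over the whole series with edgeR 4.0.16 (quasi-likelihood, a term per library, for methylated calls and for methylated calls in HRCS) and limma 3.58.1 in R 4.3.3, with Benjamini-Hochberg adjustment, after a test of the edgeR fit on simulated data. Apart from the changes put in, the simulated libraries differed by counting error only, so that test does not cover the spread between libraries. Levels, permutation tests and intervals were computed in Python 3.11.15 (numpy 2.4.6, scipy 1.17.1, pandas 2.3.3), and plots drawn with matplotlib 3.10.9.

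The domain, its members and its regions were chosen with earlier results of these data known. Named were, by rule, the highest and lowest window or site of a region, the 3 largest differences in each direction, and the borders. The runs of sites, the steps between neighbours, the CTCF and ZFP57 matches and the Mir675 hairpin were chosen after the values were seen. Exons and promoters were placed by the spacing of at least 3 CG sites.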

Additional observations from a re-analysis of the deposited data

Results flagged for a closer look

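CG sites under the minimum of reads, which the comparisons of the report did not use, carried methylated reads in every region. Their number exceeded 3, the limit that a count of 0 allows, which any stretch with a few methylated reads passes. Of the calls at such sites, 67 of 68 were methylated in the control region, 86 of 169 in H19, 621 of 2981 in Igf2 and 842 of 1174 in the rest of the domain.

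The 32 sites of the H19 control region above 149766998 are those of the control region under the minimum, and their methylated share was 98.5% (95% Wilson interval 92.1% to 99.7%). By library these were 26 of 26 and 15 of 16 in swim-up sperm against 6 of 6 and 20 of 20 in HRCS, and 20 of the 32 sites had no read in any library.

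The calls of H19 were of unlike state along the gene. Its 15 sites below the first site at the minimum had 90 calls, of which 84 were methylated (93.3%), and the 2 sites near its start had 2 methylated of 79. By library the methylated share of all 17 sites was 66.0% and 75.6% in swim-up sperm against 29.2% and 26.7% in HRCS, where the 2 sites near the start held 15 of 50 and 7 of 41 calls in swim-up sperm against 34 of 48 and 23 of 30 in HRCS.

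The 95 sites of Igf2 below 149841646, where the coding exons and the 3′ end of the gene lie, had 390 calls, of which 359 were methylated (92.1%, 95% Wilson interval 88.9% to 94.3%). The levels were 93.0% and 96.7% in swim-up sperm against 92.8% and 87.6% in HRCS, and 37 of these sites had no read in any library. The intervals cover counting error only, and none of these stretches was tested between the fractions.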

How the results depend on the processing

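The excess of the control region over H19, Igf2 and the rest of the domain kept its direction under minimums of 10 and 20 reads, pooled calls, window means, minus strand reads and with each library left out. The difference of the control region between the fractions stayed negative under these, but with window means it was -0.198 with overlapping libraries, and it was between -0.639 and -0.266 with 1 library left out. No window or site of the domain was called under any alternative. For the regions near equality between the fractions the sign changed: H19 was -0.879 percentage points (HRCS minus swim-up sperm) with pooled calls, -0.447 with window means, 0.676 and 1.37 with minimums of 10 and 20 reads, and between -1.01 and 1.06 with 1 library left out, negative without swim-up replicate 2 or HRCS replicate 2. Igf2 was -0.343 where 20 reads were required, -0.0804 with window means, -0.0407 on the minus strand and between -0.260 and 0.412 with 1 library left out, negative without swim-up replicate 2. The rest of the domain was -0.751 with pooled calls, 4.19 and 5.18 with minimums of 10 and 20 reads, 1.55 on the minus strand, 1.95 without HRCS replicate 1 and 0.0597 without HRCS replicate 2. The causes were not tested. Windows of 100 bp gave the methylated stretch at the control region a span of 1100 bp. The share of windows above 75%, 43.2% as a mean of the 4 libraries, changed to 39.9% where 10 reads were required, 30.8% and 50.8% with windows of 100 and 500 bp, and 47.9% with at least 1 site per window.

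The replicate numbers tie no libraries together in the labels, and the deviations of same-numbered libraries had a correlation of -0.00176 over 316993 windows. With the numbers as a replicate block, 0 windows and 0 sites of the domain were called. The differences of the regions were -0.452, 0.0222, 0.0761 and 1.01 percentage points, as without it. Each number holds 1 library of each fraction, so a block cannot change these differences. At 5 reads a site cannot show a difference below 20 percentage points in 1 library, and 951 of the 1340 sites had too few reads to be assessed.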
